A study of Mus musculus with 18 samples.

Results

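Oxidative phosphorylation is carried out by 5 protein complexes of the inner mitochondrial membrane. Complex I takes electrons from NADH and complex II from succinate, complex III passes them from ubiquinol to cytochrome c, complex IV hands them to oxygen, and complex V uses the proton gradient built up on the way to make ATP. Most subunits are encoded in the nucleus and imported, and the rest are encoded in the mitochondrial genome. Complexes I, III, IV and V need both sets of transcripts, while the subunits of complex II are all encoded in the nucleus. In dendritic cells (DCs), which take up antigen in tissues and carry it to lymph nodes for presentation to T cells, mitochondrial respiration is known to be reset when the cells mature.

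The genes described here are the nuclear-encoded subunits of these complexes. They were chosen by symbol, as the mouse genes named Nduf, Sdh, Uqcr, Cox4 to Cox8 or Atp5 followed by a subunit letter or number, and comprised 84 of the 54232 genes in the count table (83 symbols, since Atp5o had 2 identifiers). Of these, 36 were assigned to complex I, 4 to complex II, 8 to complex III, 18 to complex IV and 18 to complex V by the same symbols. Ndufa4 was counted with complex I for its name, although its protein is now placed in complex IV, and Cox6c2 is annotated as a processed pseudogene. Atp5s was counted with complex V for its name, but is a coupling factor and not a subunit of the enzyme.

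RNA of sorted DCs was sequenced in 18 libraries, 3 in each of 6 groups. CD11b+ DCs, CD103+ DCs and DCs carrying both CD11b and CD103 (double-positive DCs) were each taken from lamina propria of the small intestine and from intestinal lymph nodes. All animals were of the C57BL/6J strain and all carried a knockout of CD11a, the integrin alpha chain encoded by Itgal, so no group shows an effect of the knockout. Age, infection and the number of animals behind a library are not given for these samples, and the p-values measure the spread between these libraries only.

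Total counts ranged from 23574292 to 46901985 per library, with a median of 27356482. Reads of Itgal were present in every library, at 6.45 to 26.6 counts per 1e6 counts of the library (CPM), and whether they fall within the deleted part was not tested. In double-positive DCs Itgam, which encodes CD11b, averaged 68.5 CPM in lamina propria and 5.16 CPM in lymph node. Itgae, which encodes CD103, lay between 92.0 and 1439 CPM in lamina propria and between 5.57 and 49.1 CPM in lymph node, so Itgae was lower in every lymph node library than in any of lamina propria. Markers of the cells sorted as CD103+ DCs also differed between the tissues, with Xcr1 at 1399 ± 9.45 CPM in lamina propria and 97.5 ± 4.39 CPM in lymph node (SD, n = 3), so these libraries carry the same label but not the same marker levels. Lamina propria libraries held reads of Ddx3y, a Y-linked gene, and at most 0.285 CPM of Xist, the lymph node libraries carried 15.3 to 89.1 CPM of Xist, and the third lymph node replicates of CD11b+ and double-positive DCs carried both. Tissue and sex of the animals could therefore not be told apart in CD103+ DCs. In the other 2 subsets they were nearly confounded as well, since their first and second lymph node replicates held at most 0.213 CPM of Ddx3y.

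Most subunits were expressed well above the detection limit in all groups. At least 1 read was counted for 81 of the 84 genes, and 79 passed the filter on low counts and were tested. The genes not tested were Cox6a2 (at most 17 reads in a library), Cox8b (at most 3), Cox7b2 and Cox8c (0 reads each) and the second Atp5o identifier (0 reads). These are alternative isoforms of cytochrome c oxidase known from muscle or testis, apart from Atp5o. Levels are given in CPM on library sizes scaled by the trimmed mean of M values (TMM), and differences as log2 values with their standard error (SE). A difference is called a rise or a fall where its adjusted p was under 0.01 in the quasi-likelihood test of edgeR, with p-values adjusted by the Benjamini-Hochberg method over 17074 genes. In bulk RNA of sorted cells, fewer cells with a transcript and less of it per cell cannot be told apart.

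Per kilobase of transcript, the beta subunit of ATP synthase, Atp5b, had the highest level of the module, with a mean of 656 CPM per kb over the 18 libraries. The leading genes of the other complexes by the same measure were Cox6a1 (581 CPM per kb), Ndufa3 (306), Uqcrb (302) and Sdhd (153). The lowest tested genes by this measure were Cox4i2 (0.315 CPM per kb), Cox6c2 (2.28) and Ndufb2 (3.41). The place of Ndufb2 rests on the transcript length of 2413 bases used for it. Without division by length it had 5.35 to 11.8 CPM, above Cox7a1 with 0.552 to 3.01 CPM. Sdhd, a membrane anchor of complex II, and Ndufv3, an accessory subunit beside the NADH site, had the narrowest ranges of group means among genes above 10 CPM in all groups.

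The summed level of the module was lower in lymph node than in lamina propria in CD11b+ and in double-positive DCs. In CD11b+ DCs the 3 lamina propria libraries had 11260, 11900 and 11560 CPM and the lymph node libraries 10670, 9423 and 9333 CPM. Double-positive DCs had 11490, 12200 and 11880 CPM in lamina propria and 10050, 11070 and 9347 CPM in lymph node. CD103+ DCs had 12730, 13510 and 12770 CPM in lamina propria and 11790, 12270 and 13220 CPM in lymph node, where the libraries of the 2 tissues overlapped. As a share of all counts, which does not depend on TMM, the module took 1.17% to 1.24% in lamina propria and 0.835% to 0.998% in lymph node double-positive DCs. In CD11b+ DCs the shares overlapped (1.21% to 1.24% and 1.05% to 1.25%), and in CD103+ DCs they did not (1.3% to 1.34% and 1.03% to 1.13%), so whether these sums overlapped depended on the scaling.

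**Figure D1:**
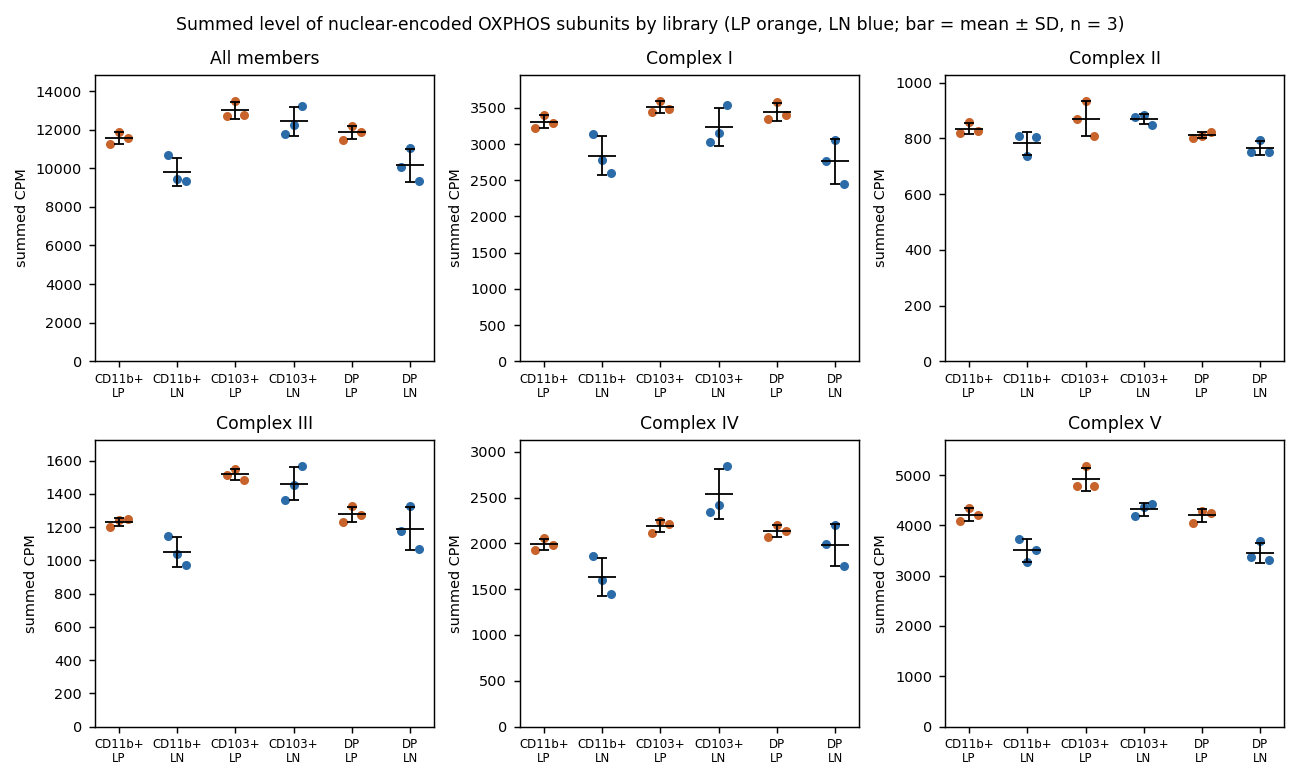
Summed level of the subunits of each complex (CPM, TMM-scaled) in each library, by subset and tissue, with points for the 3 libraries of a group and bars for the mean ± SD (LP, lamina propria; LN, lymph node; DP, double-positive). The complex I points of lymph node lie below those of lamina propria in CD11b+ and double-positive DCs. As shares of all counts, complex I overlapped between the tissues in CD11b+ DCs (0.347% to 0.356% and 0.292% to 0.366%). Complex IV of CD103+ DCs had 2190 ± 65.6 CPM in lamina propria and 2536 ± 272 CPM in lymph node (SD, n = 3). The shares of complex IV (0.216% to 0.226% and 0.205% to 0.243%) do not show this direction.

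Gene by gene, falls outnumbered rises in each subset. In CD11b+ DCs 17 of 79 subunits fell in lymph node (21.5%) against 11.6% of all genes tested, and 1 rose (1.27%) against 15.2%. In CD103+ DCs 23 fell (29.1%) against 24.1% of all genes, and 9 rose (11.4%) against 27.6%. In double-positive DCs 35 fell (44.3%) against 22.7%, and 5 rose (6.33%) against 26.9%. The median log2 difference over the 79 subunits was -0.24, -0.13 and -0.24 for the CD11b+, CD103+ and double-positive subsets, beside 0.03, 0.04 and 0.07 over all genes tested. The differences were small, since 3, 2 and 4 subunits of the same subsets were called with a fold over 2, against 15.2%, 35% and 32.1% of all genes. The share of falls in CD103+ DCs lay near that of all genes.

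The scaling of the libraries moved these counts. Scaled to total counts instead of by TMM, the median of all genes shifted by 0.14, -0.22 and -0.17 in that order, and 1 subunit rose and 6 fell in CD11b+, 6 rose and 41 fell in CD103+, and for double-positive DCs the numbers were 2 and 47. Under the same scaling 19.3%, 22.7% and 22.4% of all genes rose and 8.18%, 30% and 27.4% fell, so the falls in CD11b+ DCs were then no more frequent than among all genes. Relative to the median of all genes, the median subunit lay at -0.27, -0.17 and -0.31 by TMM and at -0.27, -0.18 and -0.31 by total counts. The count of falls in CD11b+ DCs also rested on single libraries. It was 7 without the second lamina propria CD11b+ replicate, 9 without the third, 6 without the second lymph node CD11b+ replicate and 8 without the third. Without the 2 lymph node libraries that carried both sex markers it was 8 (8.99% of all genes), and in double-positive DCs 26 (19.2%).

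**Figure D2:**
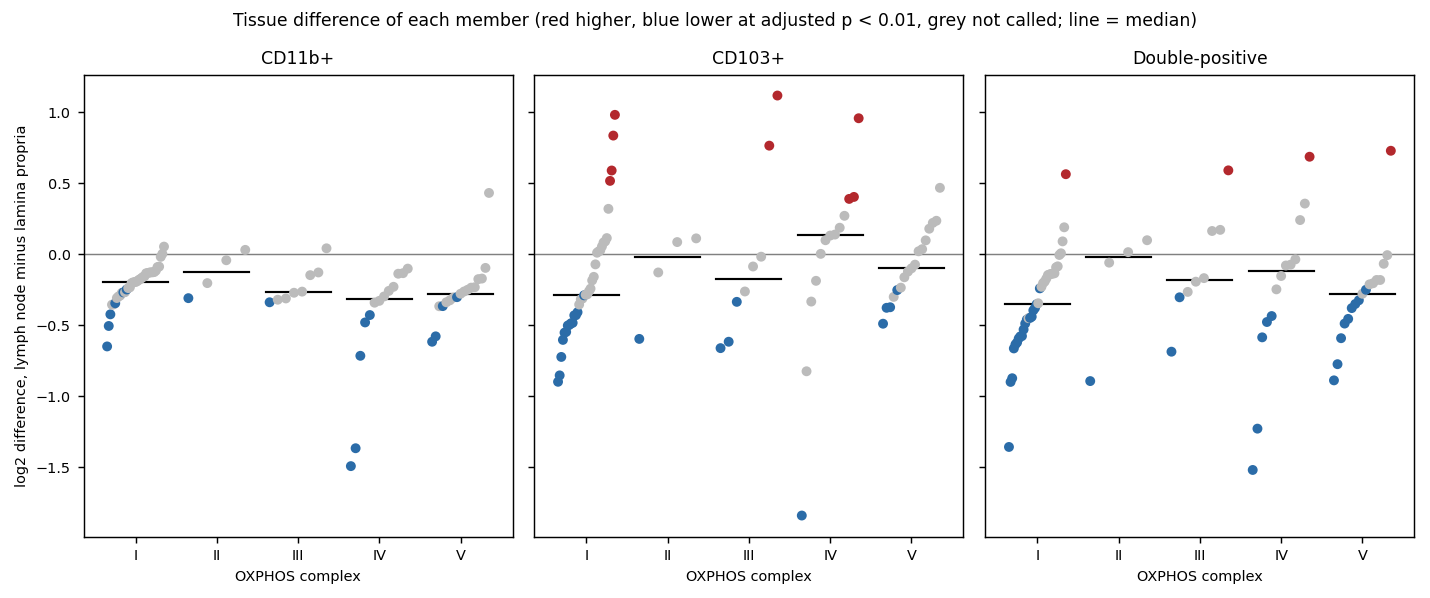
Log2 difference between lymph node and lamina propria for each tested subunit but Cox4i2, by complex and subset, with red points for rises and blue points for falls at adjusted p under 0.01, grey points for no call, and lines at the median of each complex, Cox4i2 included. Most points lie below 0, and the median of complex IV in CD103+ DCs lies above it, at 0.14, but at -0.09 by total counts.

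The calls were also counted by complex, and no test compared the complexes. Of all genes tested, 11.6%, 24.1% and 22.7% fell and 15.2%, 27.6% and 26.9% rose in CD11b+, CD103+ and double-positive DCs. The falls of complex V in CD103+ DCs (23.5%) and of complex III in CD11b+ DCs (12.5%) lay near these shares. Of the 36 complex I subunits, 6 fell and 0 rose in CD11b+ DCs, 14 fell and 4 rose in CD103+ DCs, and 18 fell and 1 rose in double-positive DCs, with medians of -0.19, -0.28 and -0.35. None of the 36 had an unadjusted p under 0.05 for a rise in CD11b+ DCs, and DESeq2 called 0. The falls of complex I moved with the scaling. By total counts only 1 of the 36 fell in the CD11b+ subset, no more frequent than the 8.18% of all genes. In CD103+ DCs 23 then fell and 3 rose (30% and 22.7% of all genes). For double-positive DCs it was 22 falls and 0 rises (27.4% and 22.4% of all genes). Of the 17 complex V members tested, 4, 4 and 9 fell over the CD11b+, CD103+ and double-positive subsets. By total counts these falls numbered 1, 8 and 14. In the double-positive subset 1 rose by TMM, the coupling factor Atp5s, which is not a subunit of the enzyme. Of the 14 complex IV subunits tested, 5 fell and 1 rose in CD11b+, 1 fell and 3 rose in CD103+, and 5 fell and 2 rose in double-positive DCs. In CD103+ DCs the direction of complex IV turned with the scaling, since 3 fell and 1 rose by total counts. Among the 8 subunits of complex III, 1 fell in CD11b+, 3 fell and 2 rose in CD103+, and 2 fell and 1 rose in double-positive DCs. In complex II, 1 of 4 subunits, Sdhc, fell in each subset. By total counts 0 subunits of complexes II and III fell in the CD11b+ subset, and 4 of complex IV. The counts of complex I in CD11b+ DCs were 3 falls and 0 rises of 36 without the 2 libraries named above. Of all genes 8.99% fell and 11.8% rose there, so these falls were no more frequent than among all genes.

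Complex I consists of a peripheral arm that oxidises NADH and a membrane arm that pumps protons. Among the core subunits, which carry the catalytic centres, Ndufs8 and Ndufv1 fell in CD103+ and in double-positive DCs, Ndufs1 fell in CD103+ DCs, and Ndufs3 and Ndufs7 fell in double-positive DCs. In CD103+ DCs the core subunit Ndufv2 (chr17:66078638-66101559, GRCm38, minus strand) moved the other way. It had 146, 150 and 158 CPM in lamina propria and 291, 283 and 323 CPM in lymph node. These ranges did not overlap, and Ndufv2 rose by 0.98 on the log2 scale (SE 0.10, adjusted p = 2.3e-07 by edgeR). Its partners in the NADH-oxidising tip of the enzyme did not follow. Ndufv1, which binds NADH, fell from 96.6, 97.1 and 93.9 CPM to 62.6, 74.6 and 66.6 CPM in CD103+ DCs (-0.50, SE 0.07, adjusted p = 6.3e-06 by edgeR). Ndufs1, the iron-sulphur subunit of the same tip, had 95.4, 89.4 and 81.6 CPM in lamina propria and 69.2, 70.7 and 60.8 CPM in lymph node (-0.41, SE 0.07, adjusted p = 1.3e-04 by edgeR). In double-positive DCs Ndufv2 had 142, 157 and 151 CPM in lamina propria and 146, 180 and 154 CPM in lymph node, with no call. In CD11b+ DCs it had 147, 156 and 146 CPM and 141, 120 and 106 CPM, and the adjusted p was 0.029.

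Ndufs8, an iron-sulphur core subunit on the path to ubiquinone (chr19:3908863-3912774, GRCm38, minus strand), had the opposite course in CD103+ DCs. Lamina propria CD103+ libraries had 162, 171 and 150.0 CPM and lymph node CD103+ libraries 84.8, 86.2 and 96.2 CPM, a fall with no overlap (-0.85, SE 0.09, adjusted p = 2e-07 by edgeR). In double-positive DCs it fell from 148, 158 and 142 CPM to 105, 107 and 97.6 CPM (-0.53, SE 0.09, adjusted p = 4.8e-05 by edgeR). CD11b+ DCs had 134, 147 and 128 CPM and 133, 113 and 111 CPM, where the tissues overlapped and no call was made. Ndufv1 was not called in CD11b+ DCs either, with 104, 102 and 112 CPM in lamina propria and 92.7, 96.9 and 100.0 CPM in lymph node.

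The accessory subunits Ndufa5 and Ndufa9 belong to the peripheral arm, Ndufa9 at its junction with the membrane. Ndufa5 was 46.6, 46.9 and 40.4 CPM in lamina propria and 20.9, 22.8 and 28.2 CPM in lymph node CD103+ DCs (-0.90, SE 0.14, adjusted p = 3.2e-05 by edgeR). It fell by the same amount in double-positive DCs (-0.90, SE 0.14), from 44.9, 47.9 and 49.97 CPM to 26.2, 29.4 and 20.8 CPM. Ndufa9 fell in all 3 subsets, by 0.35 (SE 0.07), 0.72 (SE 0.07) and 0.59 (SE 0.07) on the log2 scale in CD11b+, CD103+ and double-positive DCs. The CD11b+ fall of Ndufa9 was not called under total counts (-0.21). The accessory subunits Ndufa10, Ndufa12 and Ndufb8 also fell in all 3 subsets, Ndufa12 by 0.42, 0.60 and 0.87 (SE 0.11 each). In CD11b+ DCs the calls of these 3 were lost under total counts (-0.13 for Ndufa10, -0.29 for Ndufa12 and -0.37 for Ndufb8) and each without any 1 of 4 or 5 of the CD11b+ libraries, and in CD103+ DCs that of Ndufb8 was lost without the third lamina propria or the first or the second lymph node CD103+ replicate.

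Ndufa8 (chr2:36036326-36049406, GRCm38, minus strand), an accessory subunit of the membrane arm on the side of the intermembrane space, set lamina propria double-positive DCs apart. These had 162, 174 and 176 CPM, above the CD11b+ DCs of the same tissue with 119, 121 and 133 CPM and the CD103+ DCs with 98.7, 101 and 90.9 CPM. In lymph node the 3 subsets lay together, at 87.7, 74.2 and 75.4 CPM in CD11b+, 65.0, 73.8 and 76.9 CPM in CD103+, and 72.0, 73.4 and 54.0 CPM in double-positive DCs. The fall in double-positive DCs (-1.36, SE 0.11, adjusted p = 1.5e-08 by edgeR) exceeded that in CD103+ DCs by 0.93 (SE 0.15, adjusted p = 2.8e-04) and that in CD11b+ DCs by 0.71 (SE 0.15, adjusted p = 1.9e-03).

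A small set of complex I accessory subunits rose in CD103+ DCs. Ndufb4 of the membrane arm had 15.7, 16.1 and 15.6 CPM in lamina propria and 24.8, 25.5 and 34.3 CPM in lymph node (0.84, SE 0.15, adjusted p = 1.3e-04 by edgeR), and rose in double-positive DCs by 0.56 (SE 0.15), a call lost under total counts (0.39) and without the first or the third lamina propria or the first or the second lymph node double-positive replicate. Ndufa1, encoded on the X chromosome and needed for assembly of the membrane arm, rose from 106, 110 and 110 CPM to 146, 155 and 190 CPM (0.59, SE 0.10, adjusted p = 6.1e-05 by edgeR). Ndufa11 rose by 0.52 (SE 0.11), which was not called under total counts (0.29). The other X-linked members did not share this direction in CD103+ DCs, since Ndufb11 fell by 0.50 (SE 0.09) and Cox7b was at -0.33 with adjusted p = 0.029. Because the sex markers differed between tissues, the part of sex in the X-linked values was not tested.

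**Figure D3:**
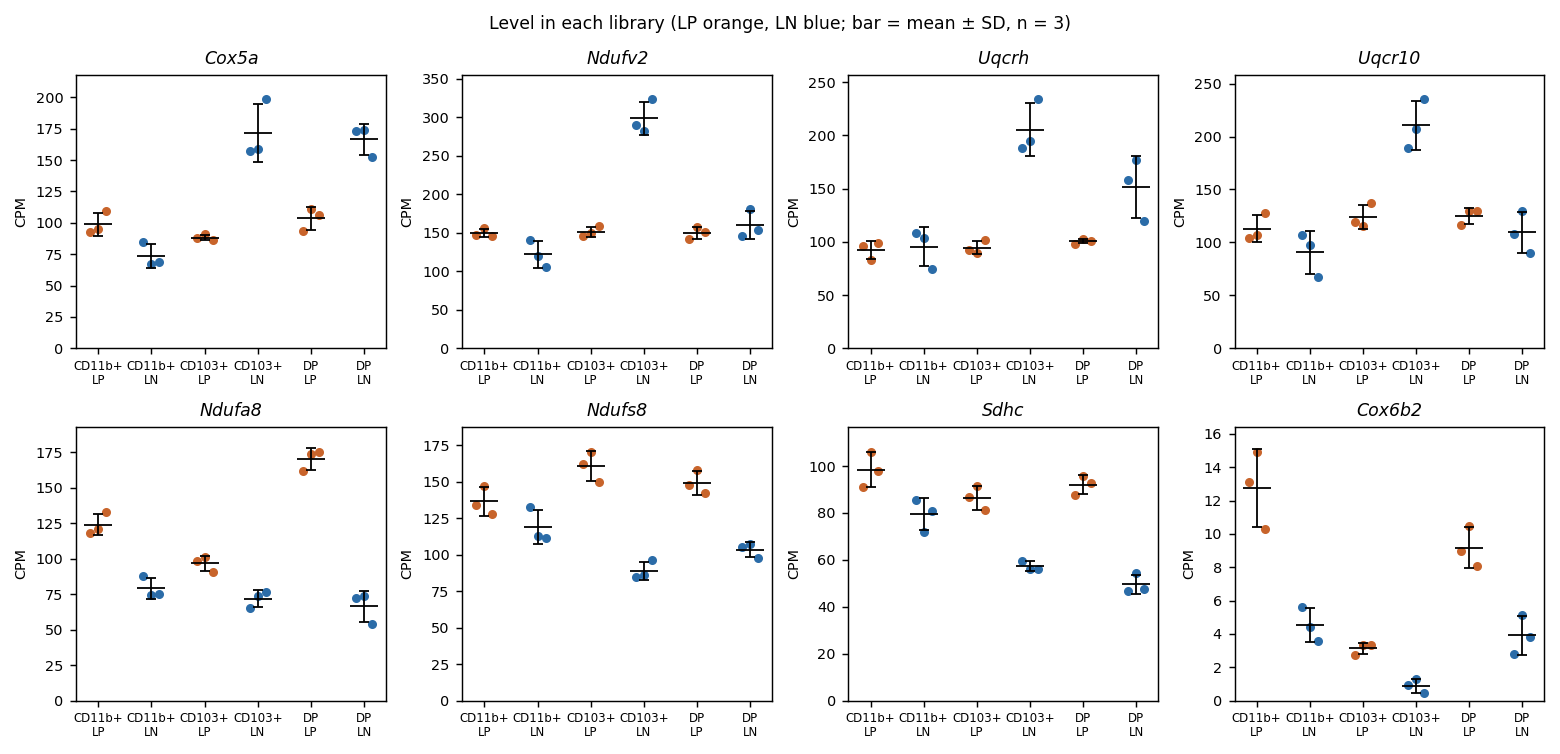
CPM of the genes the results turn on in each library, by subset and tissue, each panel with an axis from 0, points for libraries and bars for the mean ± SD (n = 3). Ndufv2 reaches 283 to 323 CPM in lymph node CD103+ libraries and stays at or below 180 CPM in the others, and Ndufa8 is highest in lamina propria double-positive DCs.

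Complex II is the smallest of the complexes, and its subunits also work in the tricarboxylic acid (TCA) cycle. Sdhc (chr1:171127165-171150603, GRCm38, minus strand), a membrane anchor that binds ubiquinone and haem with Sdhd, had 87.6, 95.6 and 92.9 CPM in lamina propria and 46.9, 54.3 and 47.4 CPM in lymph node double-positive DCs (-0.89, SE 0.08, adjusted p = 1.1e-07 by edgeR). CD103+ DCs had 86.7, 91.6 and 81.3 CPM and 59.7, 56.2 and 55.9 CPM (-0.60, SE 0.08, adjusted p = 9.9e-06 by edgeR). Its fall in CD11b+ DCs was smaller, from 91.2, 106 and 97.9 CPM to 85.4, 72.1 and 80.8 CPM (-0.31, SE 0.08, adjusted p = 7.3e-03 by edgeR), and was lost under total counts (-0.18) and without any 1 of 9 of the 18 libraries (-0.24 to -0.32). Sdhd, the other anchor, overlapped between tissues in CD103+ DCs, at 187, 184 and 180 CPM and 180, 200 and 205 CPM, and in double-positive DCs. In CD11b+ DCs its lymph node libraries (186, 174 and 163 CPM) all lay below those of lamina propria (200, 188 and 213 CPM), with no call (-0.20, SE 0.09, adjusted p = 0.089 by edgeR).

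In complex III small subunits went in different directions in CD103+ DCs. Uqcrh, the hinge protein that helps cytochrome c dock (chr4:116066965-116075071, GRCm38, minus strand), had 92.5, 89.8 and 101 CPM in lamina propria and 188, 194 and 234 CPM in lymph node, a rise with no overlap (1.12, SE 0.14, adjusted p = 3.7e-06 by edgeR). In double-positive DCs it rose from 98.3, 102 and 101 CPM to 158, 177 and 120 CPM (0.59, SE 0.14, adjusted p = 1.9e-03 by edgeR), a call lost under total counts (0.42) and without the second lymph node double-positive replicate (0.46). In CD11b+ DCs the tissues overlapped at 96.5, 83.0 and 98.5 CPM and 108, 103 and 74.7 CPM. Uqcr10, a small subunit next to the iron-sulphur protein, rose in CD103+ DCs from 119, 116 and 137 CPM to 189, 207 and 235 CPM (0.77, SE 0.16, adjusted p = 4e-04 by edgeR). By contrast Uqcrb, which lies at the ubiquinone site, fell there from 250, 248 and 234 CPM to 150, 153 and 174 CPM (-0.62, SE 0.09), and Uqcr11 fell by 0.66 (SE 0.12). The core protein Uqcrc1 fell by 0.34 (SE 0.08), and Uqcrc2, Uqcrq and Uqcrfs1 were not called.

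Cox5a, a nuclear-encoded subunit that joins complex IV early with Cox4, changed in opposite directions between subsets (chr9:57521274-57532426, GRCm38, plus strand). Lamina propria CD103+ DCs had 87.8, 90.7 and 86.4 CPM and lymph node CD103+ DCs 158, 159 and 198 CPM, while double-positive DCs had 93.4, 111 and 106 CPM and 174, 174 and 152 CPM. CD11b+ DCs had 92.3, 94.8 and 110 CPM in lamina propria and 84.6, 67.0 and 68.9 CPM in lymph node. The tissues overlapped in none of the 3 subsets. Cox5a rose by 0.96 (SE 0.11, adjusted p = 1e-06 by edgeR) in CD103+ DCs, with 0.69 (SE 0.11, adjusted p = 4.4e-05 by edgeR) for double-positive DCs, and fell by 0.43 (SE 0.11, adjusted p = 5.6e-03 by edgeR) in CD11b+ DCs. The fall in CD11b+ DCs was lost under total counts (-0.29), in a fit of the compared libraries alone (-0.44) and without the second or the third replicate of either CD11b+ group (-0.35 to -0.46). Of the exonic bases of Cox5a, 12.8% overlap the gene Gm26631, whose reads could not be told apart without strand. Cox4i1, the common isoform of Cox4, had 299, 312 and 324 CPM in lamina propria and 365, 417 and 456 CPM in lymph node CD103+ DCs (0.40, SE 0.11, adjusted p = 4.1e-03 by edgeR), a call lost under total counts (0.18), without filter (0.35) and without any 1 of 7 libraries (0.31 to 0.41).

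Other complex IV subunits were called as falls in the 2 subsets that carry CD11b. Cox7b had 138, 151 and 127 CPM in lamina propria and 103, 81.2 and 69.1 CPM in lymph node CD11b+ DCs (-0.72, SE 0.13, adjusted p = 2.9e-04 by edgeR), and fell by 0.59 (SE 0.13) in double-positive DCs. In CD103+ DCs Cox7b went from 170, 191 and 182 CPM to 134, 138 and 159 CPM, called by total counts but not by TMM. The F test did not call a difference between subsets for Cox7b (adjusted p = 0.2 by edgeR). Cox8a fell by 0.48 (SE 0.09) in CD11b+ and by 0.48 (SE 0.09) in double-positive DCs, and its levels in CD103+ DCs were 324, 351 and 316 CPM in lamina propria and 354, 331 and 407 CPM in lymph node, with no call. Cox6b1, which sits at the cytochrome c side of the enzyme, rose in CD103+ DCs by 0.39 (SE 0.11, adjusted p = 4.2e-03 by edgeR), a call also lost under total counts (0.16) and without any 1 of 5 libraries (0.29 to 0.39).

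The alternative isoforms of complex IV were low against their common partners, and were the members with the largest differences. Cox4i2, the isoform known from lung and from the response to low oxygen, had 34, 36 and 27 reads in lymph node CD11b+ libraries and 0, 0 and 1 in lamina propria. Summed over the groups, this was 97 against 1 read, a ratio of 89.9 with a 95% counting interval of 15.8 to 3590, which covers counting error only. In double-positive DCs 22 reads stood against 1 (ratio 24.7, interval 3.98 to 1020), and in CD103+ DCs 2 against 1. Both differences were called in edgeR's test (adjusted p = 1.7e-04 and 2.7e-03), the double-positive one not without the second or the third lamina propria double-positive replicate. Even so, lymph node CD11b+ DCs had 1.42 CPM per kb of Cox4i2 beside 347 CPM per kb of Cox4i1.

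Cox6b2, known as the testis isoform of Cox6b, fell in all 3 subsets. It had 13.1, 14.9 and 10.3 CPM in lamina propria and 5.60, 4.41 and 3.59 CPM in lymph node CD11b+ DCs (-1.49, SE 0.30, adjusted p = 8e-04 by edgeR). In CD103+ DCs it was 2.76, 3.31 and 3.34 CPM against 0.912, 1.26 and 0.438 CPM (-1.84, SE 0.32, adjusted p = 1e-04 by edgeR). Double-positive DCs had 8.97, 10.5 and 8.06 CPM and 2.81, 5.13 and 3.80 CPM (-1.23, SE 0.30, adjusted p = 1.9e-03 by edgeR), a call lost without the first lymph node replicate (-1.05). Within both tissues the CD103+ DCs were the lowest, and the mean over all libraries was 10.4 CPM per kb against 433 CPM per kb of Cox6b1. Cox7a1, the heart and muscle isoform of Cox7a, lay between 0.552 and 3.01 CPM in all libraries. It fell by 1.37 (SE 0.32) in CD11b+ DCs and by 1.52 (SE 0.32) in double-positive DCs, the former call being lost without the third lamina propria or the second or the third lymph node CD11b+ replicate, while its partner Cox7a2 had a mean of 186 CPM per kb against 3.53.

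**Figure D4:**
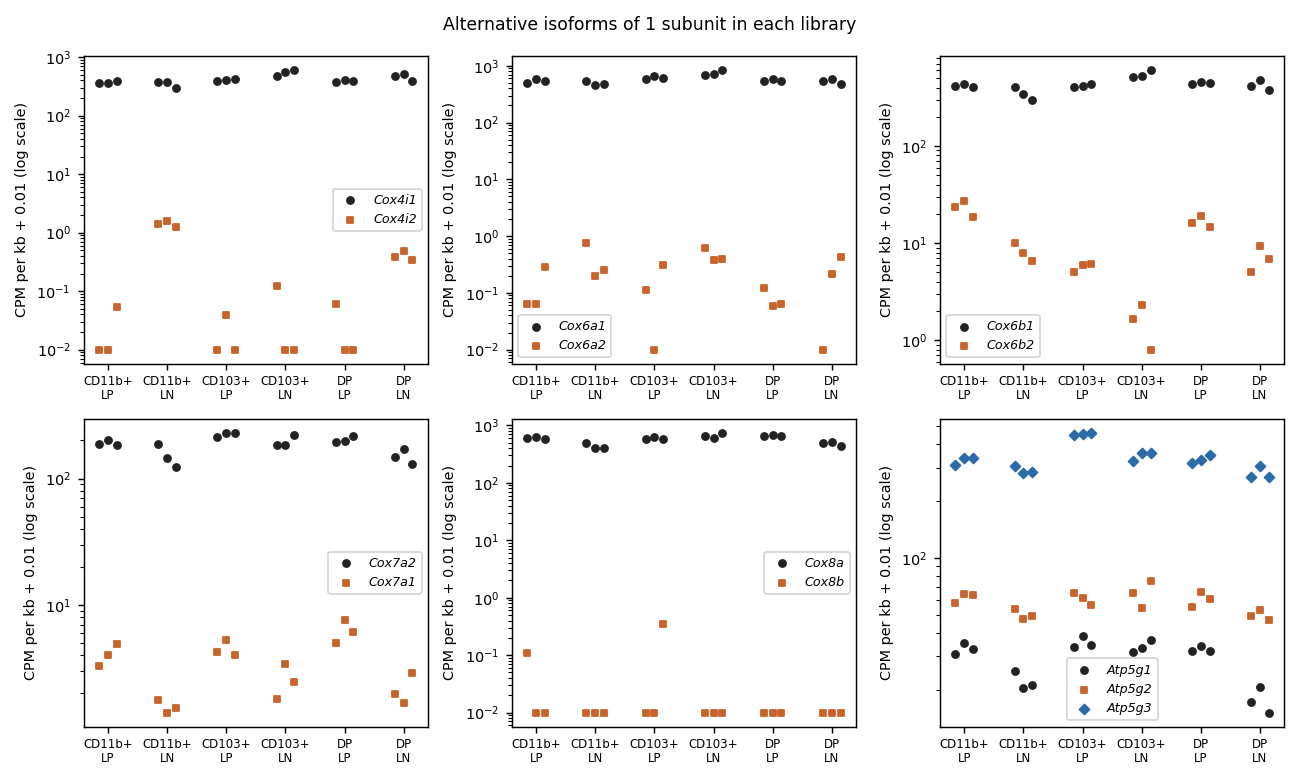
Levels of alternative isoforms in CPM per kb of transcript plus 0.01, on a log axis, by group, with points for the 3 libraries. The common isoforms Cox4i1, Cox6a1, Cox6b1, Cox7a2 and Cox8a lie above their alternatives in every group, and Cox4i2 exceeds 1 CPM per kb in lymph node CD11b+ DCs and in no other group.

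Complex V has a rotor ring built from subunit c, for which Atp5g1, Atp5g2 and Atp5g3 encode the same mature protein. Atp5g3 had the highest level of the 3 (338 CPM per kb, with 57.9 for Atp5g2 and 29.2 for Atp5g1 over all libraries). The transcript lengths used were 714 bases for Atp5g3, 586 for Atp5g2 and 4660 for Atp5g1. The order of Atp5g1 and Atp5g2 rests on these lengths, since in CPM Atp5g1 had at least 70.6 and Atp5g2 at most 44.4 in any library. Atp5g1 fell in double-positive DCs from 149, 159 and 149 CPM to 80.7, 95.9 and 70.6 CPM (-0.89, SE 0.11, adjusted p = 2.2e-06 by edgeR) and in CD11b+ DCs from 145, 166 and 153 CPM to 117, 94.7 and 98.5 CPM (-0.58, SE 0.11, adjusted p = 4.4e-04 by edgeR). In CD103+ DCs its libraries overlapped, at 157, 180 and 161 CPM and 147, 156 and 170.0 CPM. Atp5g3 fell in CD103+ DCs, from 317, 323 and 327 CPM to 233, 256 and 255 CPM (-0.38, SE 0.07, adjusted p = 1.9e-04 by edgeR), and was not called in CD11b+ DCs. In double-positive DCs it fell by 0.25 (SE 0.07), which was not called without the second or the third lamina propria or the first or the third lymph node replicate. The F test did not call a difference between subsets for Atp5g3 (adjusted p = 0.24 by edgeR). Atp5g2 was not called in any subset, and 35.8% of its windows of 75 bases are shared with other annotated genes.

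The catalytic head of complex V includes the beta subunit Atp5b and the gamma subunit Atp5c1. Atp5b had 1587, 1796 and 1582 CPM in lamina propria CD103+ DCs and 1318, 1278 and 1237 CPM in lymph node (-0.37, SE 0.08, adjusted p = 8.6e-04 by edgeR). It was also called in CD11b+ DCs by DESeq2 (-0.24) and in double-positive DCs by total counts (-0.35). Atp5c1, which turns within the head, fell in all 3 subsets, by 0.30, 0.25 and 0.32 (SE 0.07 each). Atp5e of the central stalk fell by 0.62 (SE 0.15) in CD11b+ and by 0.77 (SE 0.15) in double-positive DCs. In CD11b+ DCs the calls of both were lost under total counts (-0.17 for Atp5c1 and -0.47 for Atp5e), in a fit of the compared libraries alone, and without the second lamina propria or the second or the third lymph node CD11b+ replicate. In CD103+ DCs that of Atp5c1 was lost with the size factors of DESeq2, in the fit of the compared libraries and without the first or the second replicate of either group. The highest rise among the members counted with complex V was that of Atp5s, coupling factor B, which is not a subunit of the enzyme. In double-positive DCs Atp5s rose from 10.6, 8.03 and 8.10 CPM to 14.0, 14.2 and 16 CPM (0.73, SE 0.17, adjusted p = 1.7e-03 by edgeR), a call lost under total counts (0.56) and without the second (0.66) or the third (0.67) lamina propria double-positive replicate.

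Whether the tissue difference itself varied between subsets was tested with 1 F test a gene. It was called for 13 of 79 subunits (16.5%), against 31.5% of all genes tested. These were Cox5a, Ndufv2, Ndufa8, Ndufa1, Atp5g1, Ndufs8, Cox8a, Uqcr10, Uqcrh, Sdhc, Atp5d, Cox6b1 and Ndufv1. Between CD103+ and CD11b+ DCs the difference of the tissue differences was 1.39 for Cox5a (SE 0.16, adjusted p = 2.5e-06), 1.27 for Ndufv2 (SE 0.14, adjusted p = 2.1e-06), 1.09 for Uqcr10 (SE 0.22, adjusted p = 8.4e-04), 1.08 for Uqcrh (SE 0.20, adjusted p = 4.5e-04) and -0.66 for Ndufs8 (SE 0.12, adjusted p = 3.8e-04). Between double-positive and CD103+ DCs it was -0.89 for Ndufv2 (SE 0.14, adjusted p = 2.1e-04) and -0.82 for Atp5g1 (SE 0.15, adjusted p = 8.7e-04), and for Cox5a it was -0.27 (SE 0.16) and not called. For Sdhc it was called between double-positive and CD11b+ DCs (-0.58, SE 0.12, adjusted p = 1.3e-03). These pairs share groups, so they are not independent of each other.

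**Figure D5:**
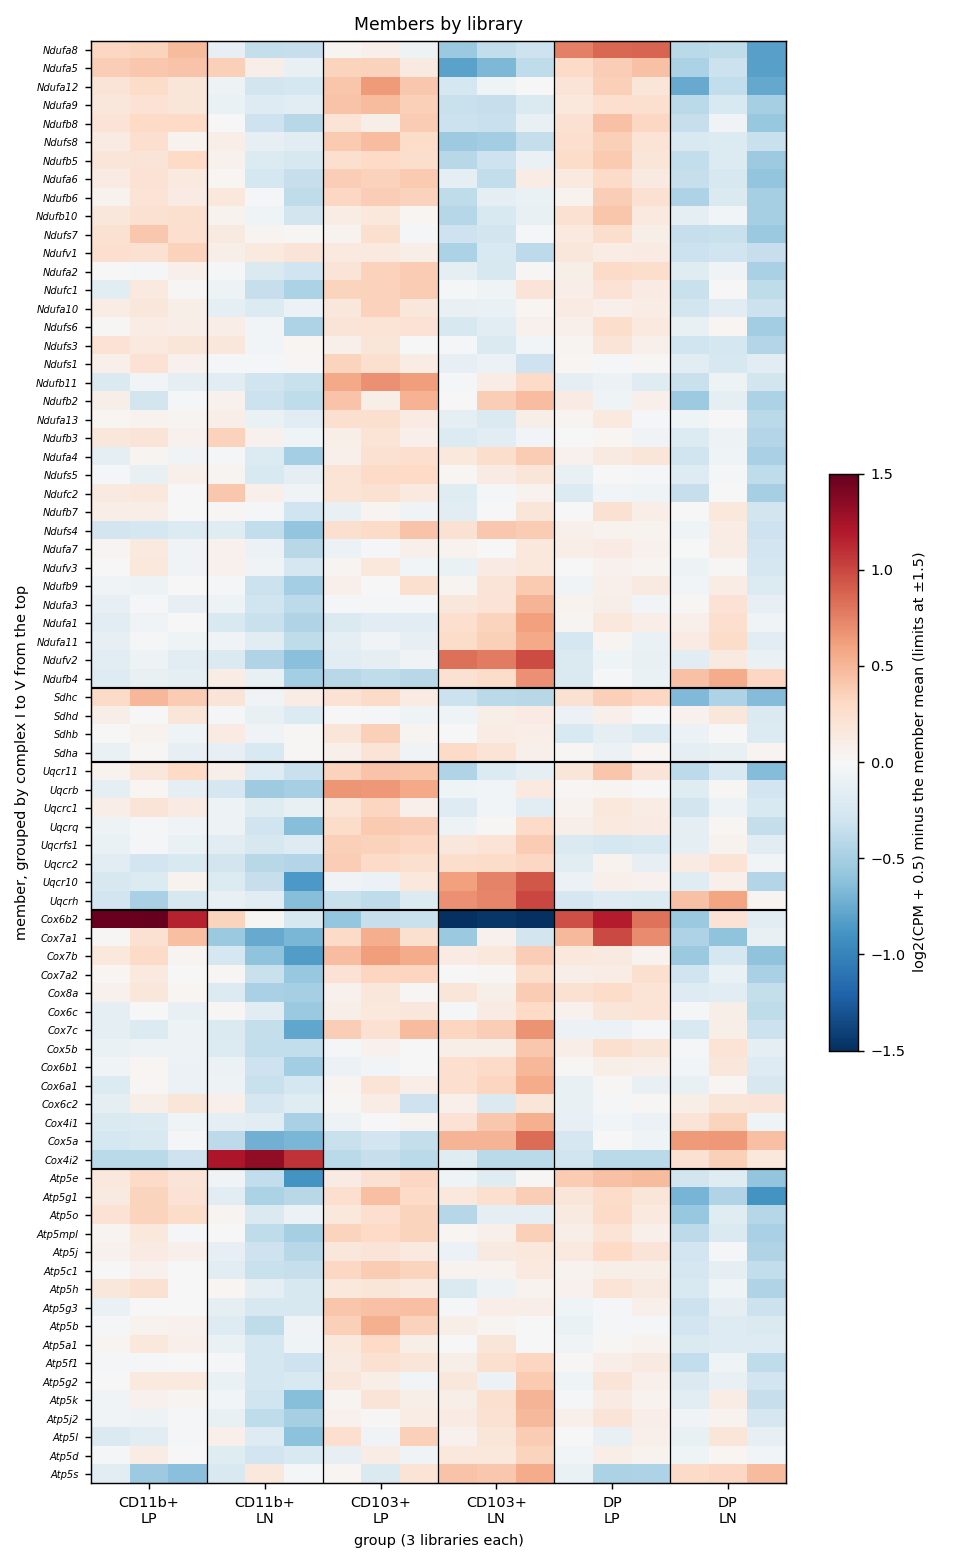
Level of the tested subunits, apart from 1 not reported here, in each library as log2(CPM + 0.5) minus the mean of that subunit over the 18 libraries, red above and blue below it, with lines of the map grouped by complex and columns by group. Much of complex I is blue in lymph node CD103+ and double-positive DCs, with Ndufv2, Ndufb4, Ndufa1 and Ndufa11 red in the lymph node CD103+ columns.

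Promoters were searched for the genes with the 3 largest rises and the 3 largest falls above 10 CPM in CD103+ DCs. Of these, 4 are shown, from genes that rose (Uqcrh and Cox5a) and that fell (Ndufs8 and Ndufa9). Those of Ndufv2, which rose, and of Ndufa5, which fell most, hold none of the motifs searched and are not shown. The sequences are RefSeq windows on GRCm38.p6 that run from 250 bases before to 50 bases after an annotated start, in the direction of the gene, and capitals mark the motifs found by their letters. Uqcrh lies at chr4:116075021-116075320 (minus strand) and holds a CCAAT box and the GABPA letters, Ndufs8 at chr19:3912725-3913024 (minus strand) holds 3 CCAAT boxes and the GABPA letters, Ndufa9 at chr6:126849095-126849394 (minus strand) holds the YY1 letters near the start, and Cox5a at chr9:57520982-57521281 (plus strand) holds none of the motifs searched.
Uqcrh: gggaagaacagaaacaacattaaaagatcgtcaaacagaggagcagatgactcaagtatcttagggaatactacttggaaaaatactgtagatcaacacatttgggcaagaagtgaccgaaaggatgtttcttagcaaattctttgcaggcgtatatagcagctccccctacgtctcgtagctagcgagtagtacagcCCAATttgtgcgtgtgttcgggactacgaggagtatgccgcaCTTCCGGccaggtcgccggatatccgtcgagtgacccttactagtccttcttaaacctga
Ndufs8: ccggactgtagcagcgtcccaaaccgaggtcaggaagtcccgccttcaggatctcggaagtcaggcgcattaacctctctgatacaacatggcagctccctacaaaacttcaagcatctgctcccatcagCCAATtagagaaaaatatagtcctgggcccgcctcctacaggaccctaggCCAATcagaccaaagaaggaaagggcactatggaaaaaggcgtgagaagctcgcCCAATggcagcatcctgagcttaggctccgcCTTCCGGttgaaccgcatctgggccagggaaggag
Ndufa9: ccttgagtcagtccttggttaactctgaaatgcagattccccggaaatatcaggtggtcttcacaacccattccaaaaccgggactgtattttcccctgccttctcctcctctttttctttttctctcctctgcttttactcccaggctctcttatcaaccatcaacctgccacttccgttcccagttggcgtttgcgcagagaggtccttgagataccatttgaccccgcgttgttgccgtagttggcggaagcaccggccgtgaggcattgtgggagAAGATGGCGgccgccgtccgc
Cox5a: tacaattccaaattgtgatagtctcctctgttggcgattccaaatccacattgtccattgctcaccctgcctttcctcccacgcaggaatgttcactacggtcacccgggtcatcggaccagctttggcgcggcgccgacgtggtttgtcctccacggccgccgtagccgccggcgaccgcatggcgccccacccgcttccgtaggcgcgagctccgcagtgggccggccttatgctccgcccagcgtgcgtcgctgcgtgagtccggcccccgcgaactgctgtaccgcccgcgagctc

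Binding motifs of factors known to act on respiratory chain promoters were counted by exact letters on both strands, in 67 members with a window and in 27025 genes. The motif of NRF1 (GCGCATGCG) was found in 11.9% of members and in 1.95% of all genes. The YY1 motif (AAGATGGCG) was found in 10.4% and 1.64%, with 15.6% in complex I. The GABPA motif (CCGGAAG) was found in 23.9% and 9.93%, and the motif of ERRA (AAGGTCA) in 11.9% and 5.38%. The shares were closer for the E-box (CACGTG, 8.96% and 8.09%) and the CCAAT box (CCAAT, 44.8% and 41.1%), and the TATA box (TATAAA) was found in 10.4% of members and 15.7% of genes. Among the 19 members with a window that fell in CD103+ DCs, 15.8% held the NRF1 letters and 15.8% the GABPA letters, and among the 8 that rose 12.5% and 25.0%. No searched motif is contained in another, and a match is a run of letters and not a bound site.

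Within lamina propria, subunits that were higher in CD103+ DCs were about as frequent as such genes among all genes tested. Against CD11b+ DCs, 9 subunits were higher (11.4% of 79 and 11.4% of all genes) and 1 lower (14.6% of all genes), and by total counts 7 were higher and 3 lower (9.79% and 16.4% of all genes). With the replicate number as a block the calls in this comparison went from 10 to 9, without Cox7c. Against CD103+ DCs, double-positive DCs had 8 lower (11.2% of all genes) and 2 higher (12.7%), and with the block the 10 calls went to 9, without Atp5c1. Against CD11b+ DCs, double-positive DCs had 1 higher subunit, Ndufa8 (2.86%), and 0 lower (4.74%) by edgeR, while 3 were lower at an unadjusted p under 0.05 and DESeq2 called 0 lower. The call of Ndufa8 there (0.46, SE 0.11, adjusted p = 7.7e-03 by edgeR) was lost by total counts and without any 1 library of the compared groups or the first lamina propria CD103+ replicate. Complex III supplied 3 of the 9, namely the Rieske iron-sulphur protein Uqcrfs1 (0.41, SE 0.07), the core protein Uqcrc2 (0.53, SE 0.08) and Uqcrb (0.72, SE 0.09). Complex V supplied Atp5b (0.38, SE 0.08), Atp5c1 and Atp5g3, and complex I Ndufs4 (0.57, SE 0.11) and Ndufb11. Ndufb11 on the X chromosome had 157, 171 and 164 CPM in CD103+ DCs and 91.0, 103 and 96.2 CPM in CD11b+ DCs (0.76, SE 0.09, adjusted p = 2.8e-06 by edgeR), and 96.0, 99.4 and 92.9 CPM in double-positive DCs. Of its exonic bases 12.9% overlap Rbm10. The subunit lower in CD103+ DCs was Cox6b2 (-2.02, SE 0.30).

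Within lymph node 32 subunits were higher and 6 lower in CD103+ than in CD11b+ DCs by TMM, against 19.5% and 23.5% of all genes. This direction depended on the scaling, because by total counts 4 were higher and 27 lower (10.9% and 38.7% of all genes), with the median of all genes moved by -0.43. Relative to all genes, the median subunit was at 0.45 by TMM and 0.44 by total counts. The higher subunits by TMM were 9 of complex I, 1 of complex II, 5 of complex III, 8 of complex IV and 9 of complex V, led by Ndufv2 (1.29, SE 0.10), Cox5a (1.22, SE 0.11), Uqcr10 (1.22, SE 0.16) and Uqcrh (1.11, SE 0.14). The lower ones were Ndufa5 (-0.75, SE 0.14), Ndufv1 (-0.51, SE 0.07), Ndufs8 (-0.42, SE 0.09), Sdhc (-0.47, SE 0.08), Cox6b2 and Cox4i2.

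Between lymph node double-positive and CD11b+ DCs, 8 subunits were higher and 7 lower by TMM (15.3% and 17% of all genes), and 1 higher and 39 lower by total counts (8.09% and 31.6% of all genes). Cox5a was the highest (1.18, SE 0.11, adjusted p = 2.9e-07 by edgeR), and Sdhc (-0.68, SE 0.08) and Ndufa5 (-0.66, SE 0.14) the lowest. Double-positive DCs had 1 subunit higher (Cox6b2) and 16 lower than CD103+ DCs (8.02% and 7.39% of all genes), led by Uqcr10 (-0.94, SE 0.16), Atp5g1 (-0.94, SE 0.11) and Ndufv2 (-0.90, SE 0.10). The sum of both directions, 17, was 6 without the third lymph node CD103+ replicate, 9 without the first lymph node double-positive replicate, 6 without the third, and 8 without the 2 libraries that carried both sex markers. Over the 6 groups and on the TMM scale, 31 of 79 subunits had their highest mean in lamina propria CD103+ DCs and 24 in lymph node CD103+ DCs, while 35 had their lowest in lymph node CD11b+ and 33 in lymph node double-positive DCs. The same counts over all genes are not given, so they do not set the subunits apart from other genes. They also depend on the scaling, since the module's mean share of all counts was higher in lymph node CD11b+ (1.15%) than in lymph node CD103+ DCs (1.07%).

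Other genes of the mitochondrion were compared in the same fit. Beside their counts stand the shares of all genes tested. Of these, 15.2%, 27.6% and 26.9% rose and 11.6%, 24.1% and 22.7% fell in CD11b+, CD103+ and double-positive DCs. By total counts 19.3% rose and 8.18% fell in CD11b+ DCs. Assembly factors in CD11b+ DCs were called less often than all genes in both directions by TMM. None of the 12 tested subunits encoded in the mitochondrial genome was called in CD11b+ or double-positive DCs by edgeR or DESeq2, 0 had an unadjusted p under 0.05 there, and 1 rose in CD103+ DCs, mt-Nd4 of complex I (0.86, SE 0.25, adjusted p = 7.6e-03 by edgeR, not called by total counts). Of 43 assembly factors, 2 rose and 2 fell in CD11b+, 6 rose and 20 fell in CD103+, and 8 rose and 16 fell in double-positive DCs, and by total counts 5 rose and 1 fell in CD11b+ DCs. The largest of these differences was a rise of Sdhaf1, which helps to build complex II, by 1.95 (SE 0.16), 3.61 (SE 0.17) and 3.08 (SE 0.16). Of 16 TCA cycle genes, 5, 11 and 11 fell and 2 rose, in CD103+ DCs, with Mdh2, the malate dehydrogenase of mitochondria, at -2.11 (SE 0.11) in CD11b+ and -2.91 (SE 0.11) in double-positive DCs. Of 74 mitochondrial ribosomal protein genes, 15, 34 and 43 fell and 3, 8 and 5 rose, while by total counts 4 fell and 5 rose in CD11b+ DCs. Cytochrome c (Cycs), the carrier between complexes III and IV, fell in each subset, by 0.89 (SE 0.11), 1.39 (SE 0.11) and 1.09 (SE 0.11). Of 11 regulators of mitochondrial genes, 3 fell in each subset, and 2 rose in CD103+ DCs (1 by total counts). The largest called difference among them in CD103+ DCs was a rise of Ppargc1b (2.165, SE 0.606, adjusted p = 5.2e-03 by edgeR). Myc fell by 1.45 (SE 0.20) in CD11b+ and by 3.04 (SE 0.22) in double-positive DCs.

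Marker genes of the DCs themselves, of other cells and of the cell cycle moved between the tissues too. In CD103+ DCs all 4 markers of the CD103+ single-positive type (Xcr1, Clec9a, Irf8 and Itgae) fell, with Clec9a at -2.69 (SE 0.22) and Irf8 at -1.53 (SE 0.09), and their sums were 7441 to 7816 CPM in lamina propria and 1722 to 1836 CPM in lymph node. Of the same 4 markers, 3 rose and 1 fell in double-positive DCs, and 2 rose and 1 fell in CD11b+ DCs. The 3 markers of the CD11b+ type (Itgam, Sirpa and Irf4) all fell in double-positive DCs, from sums of 549 to 583 CPM to 186 to 224 CPM, while 2 rose in CD103+ and 2 fell in CD11b+ DCs (1 rose and 1 fell there by total counts). Of 6 general DC markers, 4, 5 and 5 fell and 1, Flt3, rose in CD11b+, CD103+ and double-positive DCs, and the class II gene H2-Ab1 was at -2.96 (SE 0.10) in CD103+ DCs. No marker of these 3 lists was at 0 in a group. The 12 T cell markers, none of them at 0 in a group, summed to 8.93 to 74.8 CPM in lamina propria and 434 to 928 CPM in lymph node, and 11, 12 and 12 of them rose in CD11b+, CD103+ and double-positive DCs. Of the 12 proliferation markers 3, 12 and 12 fell in the same order, with sums in CD103+ DCs of 694 to 730 CPM in lamina propria and 186 to 270 CPM in lymph node. The 10 macrophage markers summed to 590 to 2918 CPM in lamina propria and 43.3 to 1222 CPM in lymph node, with Fcgr1 at 0 in lymph node CD103+ DCs. Epithelial markers summed to 65.1 to 846 CPM and 26.9 to 71.2 CPM, with Apoa1 and Alpi at 0 in lymph node CD11b+ DCs and Alpi at 0 in lymph node double-positive DCs. B cell markers summed to 13.0 to 56.9 CPM and 38.7 to 244 CPM, with Pax5 at 0 in lamina propria double-positive DCs. Plasma cell markers summed to 552 to 2297 CPM and 387 to 1717 CPM. The part of the DC markers, of these cells and of the cell cycle in the differences of the subunits was not tested.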

How the data were processed

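RNA-seq libraries of sorted intestinal DCs were compared in 18 samples, 3 in each of 6 groups, grouped by the titles. The authors deposited raw read counts per Ensembl gene. The labels name FastQC 0.11.7, STAR 2.6 and GRCm38, and the study's methods, which describe DCs from lamina propria and lymph and not these lymph node libraries by name, give uniquely aligned reads counted without strand. If the same counting was used here, which is assumed, reads of overlapping or near-identical genes can be lost or misplaced (14 of the 84 members shared at least 20% of their 75-base windows or 10% of their exonic bases with other genes). Symbols were matched by Ensembl ID for 54079 of 54232 genes, and gene positions are from GENCODE on GRCm38. Total counts of 23574292 to 46901985 per library make counting error small beside the spread between libraries except for the lowest isoforms.

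Counts were filtered with filterByExpr, scaled by TMM and fitted in 1 model of 6 groups with edgeR 4.0.16 in R 4.3.3, without covariates, over 17074 genes, and the steps were tested on simulated data. Calls were made at a Benjamini-Hochberg adjusted p under 0.01. Alternatives were DESeq2 1.42.0, its size factors, total counts, no filter, a filter of 100 reads in 3 libraries, adjusted p under 0.05, the compared libraries alone, the replicate number as a block, and the removal of each library in turn. Leaving out the 2 lymph node libraries with both sex markers was chosen after seeing the data, as were the differences of tissue differences between pairs of subsets and the read ratio of Cox4i2. Genes are named where they passed a fold of 2, had the 3 largest rises or falls above 10 CPM in a tissue comparison, had 1 of the 5 smallest p of the F test, are isoforms, lead a complex per length, lie on the X chromosome or varied least. Other members were named after their values were seen, and 1 member is not reported here by itself. The members, lists and marker genes were chosen with earlier results of these data known. No 2 libraries held identical counts. Same-numbered libraries deviated together from their group means in all 3 pairs of lamina propria CD103+ with CD11b+ DCs (correlations of 0.152 to 0.208) and with double-positive DCs (0.125 to 0.189), so the numbers were taken to pair the samples in these 2 comparisons, from the data and not the labels.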

Additional observations from a re-analysis of the deposited data

Results flagged for a closer look

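The tissue difference varied between the 3 subsets for 13 subunits in the F test of edgeR's quasi-likelihood fit over all genes (Benjamini-Hochberg adjustment), which is a test of the difference itself. These were 16.5% of the 79 subunits tested, against 31.5% of all genes tested, so such calls were less frequent among the subunits. The 5 with the smallest adjusted p were Cox5a (4.5e-06), Ndufv2 (5.2e-06), Ndufa8 (2.5e-04), Ndufa1 (2.8e-04) and Atp5g1 (1.1e-03). Cox5a and Ndufv2 rose in lymph node CD103+ DCs and had negative differences in CD11b+ DCs, Ndufa8 fell most in double-positive DCs, and Ndufa1 was called in CD103+ DCs and in no other subset. Groups of 3 libraries were not tested for outlying samples.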

How the results depend on the processing

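The replicate numbers paired lamina propria CD103+ DCs with the other subsets and were not taken to pair other groups. Same-numbered libraries had deviations from their group means that correlated at 0.075 to 0.25 between lamina propria subsets, 0.0152 to 0.129 between lymph node subsets and -0.101 to 0.0731 between tissues, and 9 of 9 lamina propria and 5 of 9 lymph node libraries correlated best with their own number. With the replicate number as a block, the count between lamina propria double-positive and CD11b+ DCs went from 1 to 0 (2 of 3 pairs over 0.1), and the calls of Sdhc and Uqcrb in CD11b+ DCs were lost.

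By total counts, there were 6 falls in CD11b+ and 41 in CD103+ DCs, 2 rises in double-positive DCs, and 4 (CD103+) and 8 (double-positive) subunits past 2-fold, the medians were -0.10, -0.35 and -0.41, the subset counts in both directions were 0 (lamina propria double-positive against CD11b+) and 40 (the same in lymph node), and the F test called 28. The stricter filter removed low isoforms and left 0 rises in CD11b+ DCs and 1 and 2 subunits past 2-fold in CD11b+ and double-positive DCs. At adjusted p under 0.05, falls in CD11b+ DCs were 31, the counts for CD103+ against CD11b+ and for double-positive against CD103+ DCs in lamina propria 20 and 17, those for double-positive against CD11b+ and against CD103+ DCs in lymph node 26 and 35, and the F test called 25. Fitting the compared libraries alone gave 7 falls in CD11b+ DCs, and 7 and 11 in the last 2 lymph node comparisons. DESeq2 gave 27 for lymph node double-positive against CD103+ DCs and 20 in the F test. Without the 2 lymph node libraries with both sex markers the falls in CD11b+ DCs were 8 and these lymph node counts 9 and 8. Except where stated further above, shares of all genes under these settings and without single libraries are not given. The counts here therefore do not tell a shift of the subunits from a shift of all genes.

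Leaving out 1 library at a time gave 6 to 21 falls in CD11b+ DCs, medians of -0.196 to -0.125 in CD103+ DCs (the lowest 3 without a lymph node CD11b+ library), 2 to 5 rises in double-positive DCs (2 without the third and 3 without the second lamina propria replicate, 3 without the second lymph node replicate), 3 to 7 subunits past 2-fold in double-positive DCs (7 without the second lymph node replicate), 0 to 1 for lamina propria double-positive against CD11b+ DCs, and 6 to 19 for lymph node double-positive against CD103+ DCs. Of 44 called values of named subunits none changed sign under any alternative run, 0 to 6 lost their call when 1 library was left out, and 16 values without a call changed sign. The causes of these shifts were not tested. With 3 libraries a group, and few reads for Cox4i2 and Cox7a1, smaller differences were not detectable.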
